A study of Mus musculus with 6 samples.

Results

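The genes described here are receptors for nucleotides, adenosine, bioactive lipids and acid, together with orphan receptors that still carry a Gpr number, in type 2 conventional dendritic cells (cDC2s) of the mouse spleen. They were chosen by symbol alone: each row of the count table named Gpr, P2ry, S1pr, Ptger, Lpar, Adora or Cysltr followed by a digit, with at least 10 counts summed over the 6 libraries. That gave 84 of the 14535 genes in the table. Another 6 symbols had fewer than 10 counts. Gpr3, with 10 counts, lay just inside this minimum and Gpr128, with 9, just outside it. The other symbols below it were P2ry1 and Gpr153 (8 each), Gpr31c (7), Gpr15 (6) and Lpar4 (2).

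RNA-seq was done on cDC2s of C57BL/6 mice, with 3 libraries from wild-type (WT) mice and 3 from CD11c-Cre Irf4fl/fl mice, labelled IRF4-deficient. In these mice Cre recombinase is driven by the promoter of CD11c (Itgax), a gene that dendritic cells share with some macrophages, and removes loxP-flanked Irf4 sequence. The labels give no age or sort gate, do not say whether each library came from its own mouse, and describe no mice with Cre alone. P-values therefore rest on the variation among libraries, part of which may be technical, and effects of Cre or of the floxed allele cannot be told apart from those of losing Irf4. In this bulk RNA, fewer cells of a type and less RNA per cell cannot be told apart.

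G protein-coupled receptors span the membrane in a bundle of helices and pass the binding of a ligand to heterotrimeric G proteins. Receptors coupled to Gs raise cyclic AMP, those coupled to Gi lower it and can direct migration, and those coupled to Gq release calcium. In the spleen such receptors place dendritic cells: the oxysterol receptor GPR183 guides cDC2s to the bridging channels at the edge of the white pulp, where they meet blood-borne antigen and T cells. ATP, ADP, adenosine, prostaglandins, leukotrienes, lysophospholipids and protons are released in damaged or inflamed tissue and reach dendritic cells through the other families.

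Totals were 7421605 to 11459920 counts per library, and the 84 genes together took 0.256 to 0.286% of them in IRF4-deficient and 0.283 to 0.306% in WT libraries. The targeted gene Irf4 was between 65.3 and 90.8 CPM in the IRF4-deficient and between 291.8 and 345.0 CPM in the WT libraries, which fits every label. CPM values are counts divided by library size after TMM scaling, and values are given for replicates 1, 2 and 3 of a group in that order. The 9 cDC2 marker genes summed to 5032 to 5434 CPM in IRF4-deficient and 4379 to 4489 CPM in WT libraries, and none was at 0. Of these, Itgam and Itgax were called higher and Cd4, Cd209a, Zbtb46 and Flt3 lower. The 5 cDC1 markers, of which 4 were called higher, summed to 171.7 to 244.7 CPM against 114.1 to 129.9 CPM, and their part in the receptor results was not tested. The first principal component (56.8% of the variance) separated the genotypes, while on the second (14%) IRF4-deficient replicate 3 was at some distance from its group.

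Expression of these receptors differed in both directions between IRF4-deficient and WT cDC2s. The ADP receptor genes P2ry12 and P2ry13, the prostaglandin receptor gene Ptger2, the oxysterol receptor gene Gpr183 and the orphan Gpr25 rose, while Gpr82, Gpr124, Gpr132, Gpr4, Lpar1, Lpar3 and Gpr155 fell. Of the 84 genes, 62 had enough counts for the test and 22 did not. By edgeR's quasi-likelihood test, with Benjamini-Hochberg adjustment over all 11934 tested genes and a threshold of 0.05, 25 of the 62 were called (40.3%), against 20.4% of all tested genes. Of these, 9 were higher (14.5%) and 16 lower (25.8%), where 9.87% of all tested genes were higher and 10.5% lower. A change of at least 2-fold was called in 15 (6 higher, 9 lower), against a background of 7.38%. The median log2 fold change (IRF4-deficient over WT) of the 62 was -0.144 and that of all tested genes 0.003, and the median of its size was 0.585 and 0.262.

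In 35 of the 62 (56.5%) the values of the groups did not overlap, as in 35.6% of all tested genes. These 35 include 24 of the 25 called genes, Gpr157 being the other, and 11 that were not called. Of the 25 calls, 18 held in every one of the alternative settings that tested them, which include leaving out each library. The exceptions are named beside their values. Counts called within a class or list below stand beside the same 20.4% of all tested genes.

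**Figure D1:**
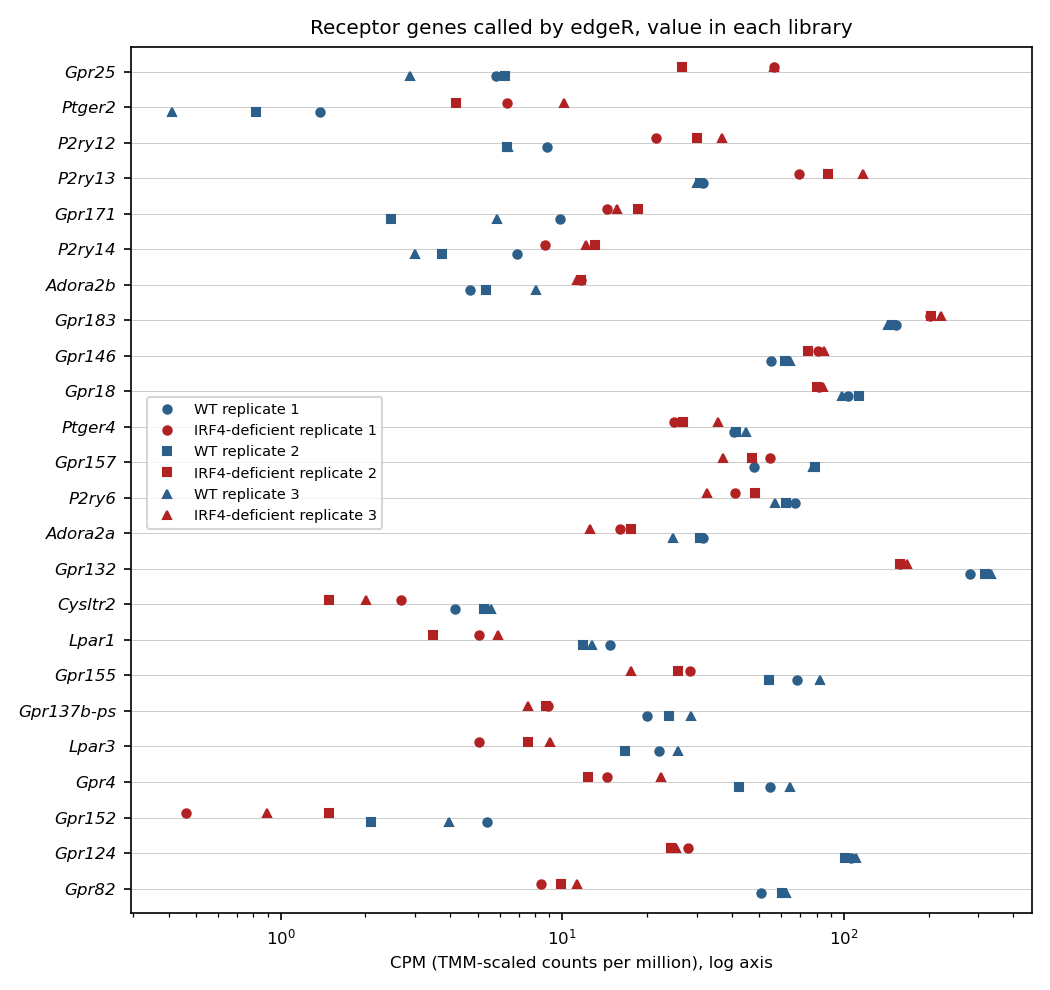
Level of 24 of the 25 called receptor genes in each library, in TMM-scaled CPM on a log axis, ordered by log2 fold change; red symbols are IRF4-deficient and blue symbols WT libraries, and the shape gives the replicate number. The red and blue symbols do not overlap in 23 rows, and in the row of Gpr157 IRF4-deficient replicate 1 lies above WT replicate 1.

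Among the P2Y nucleotide receptor genes 3 of 6 were higher and 1 was lower. P2ry13, which encodes a Gi-coupled ADP receptor, stood at 69.2, 87.7 and 117 CPM in IRF4-deficient libraries and at 31.7, 30.7 and 30.2 CPM in WT. Every IRF4-deficient library lay above every WT library, and the rise was 2.96-fold (log2 fold change 1.56, SE 0.16, edgeR adjusted p = 1.74e-06). P2ry12, the ADP receptor of platelets and microglia, was at 21.4, 30.0 and 37.0 CPM against 8.85, 6.36 and 6.42 CPM. It rose 4.10-fold (log2 fold change 2.04, SE 0.24, edgeR adjusted p = 3.63e-06), and its groups did not overlap either. P2ry14, a receptor for UDP-glucose, was at 8.65, 13.1 and 12.1 CPM against 6.91, 3.73 and 3.0 CPM, with the highest WT value close to the lowest IRF4-deficient one (log2 fold change 1.32, SE 0.33, edgeR adjusted p = 0.00708).

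The UDP receptor gene P2ry6 went the other way, with 41.0, 48.4 and 32.5 CPM in IRF4-deficient and 66.9, 62.1 and 57.1 CPM in WT libraries. All 3 IRF4-deficient values were below all WT values (log2 fold change -0.61, SE 0.15, edgeR adjusted p = 0.0054). P2ry10, an X-linked gene for a lysophosphatidylserine receptor that is named with this family, overlapped between the groups at 111, 106 and 92.2 CPM against 108, 97.8 and 114 CPM and was not called (log2 fold change -0.05, edgeR adjusted p = 0.818). P2ry2, the ATP and UTP receptor gene, had means of only 1.90 and 0.884 CPM and was not called.

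The library with the highest P2ry12 and P2ry13, IRF4-deficient replicate 3, also had the highest summed level of red pulp macrophage markers. The 12 markers, all tested and none at 0, summed to 1828, 2642 and 3425 CPM in IRF4-deficient and 1253, 1470 and 1098 CPM in WT libraries, and 7 were called higher. Monocyte markers (7 genes, none at 0) summed to 1657, 1974 and 1991 CPM against 902.9, 837.9 and 699.5 CPM, with 5 called higher. The part of such cells or programmes in the rise of these ADP receptor genes was not tested. Without IRF4-deficient replicate 3 the log2 fold change of P2ry12 was 1.84 and that of P2ry13 1.34, with edgeR adjusted p of 2.49e-05 and 1.36e-06. The 4 platelet or megakaryocyte markers found in the table summed to 3.27 to 8.40 CPM across the libraries and overlapped between the groups, while 2 others of that list, Pf4 and Treml1, had no row to sum.

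**Figure D2:**
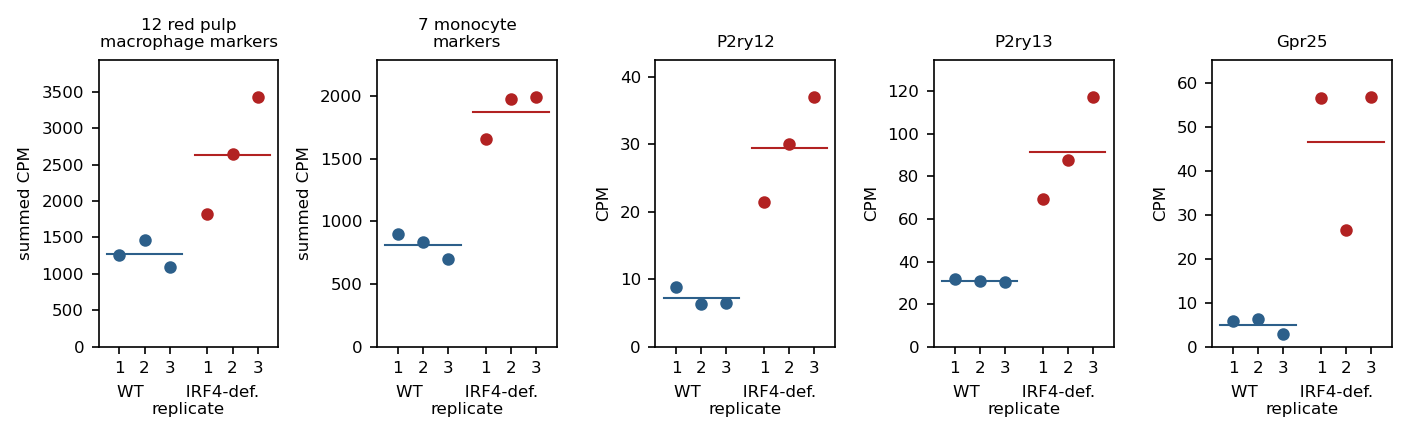
Summed CPM of red pulp macrophage and monocyte marker genes beside the CPM of P2ry12, P2ry13 and Gpr25, for each library by replicate number (red IRF4-deficient, blue WT, lines at group means). IRF4-deficient replicate 3 has the highest red pulp macrophage sum (3425 CPM), P2ry12 (37.0 CPM) and P2ry13 (117 CPM).

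The adenosine receptor genes Adora2a and Adora2b, both Gs-coupled, moved in opposite directions. Adora2a, the high-affinity receptor, was at 16.0, 17.5 and 12.6 CPM in IRF4-deficient and 31.5, 30.8 and 24.7 CPM in WT libraries. The groups did not overlap (log2 fold change -0.92, SE 0.19, edgeR adjusted p = 0.00156). Adora2b, which needs more adenosine, was at 11.7, 11.6 and 11.2 CPM against 4.70, 5.36 and 8.06 CPM. Its IRF4-deficient values were nearly equal and all above WT (log2 fold change 0.93, SE 0.28, edgeR adjusted p = 0.0213). That call did not hold without IRF4-deficient replicate 1 (0.0506) or WT replicate 1 (0.0872) or 2 (0.0951), within a range of 0.0122 to 0.0951 over all alternatives. Adora3, a Gi-coupled receptor gene, had 16.6 and 18.2 CPM on average and was not called.

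Gpr183, also known as EBI2, had the highest level per kilobase of exon in IRF4-deficient cells among the genes called higher (72.5 CPM per kb). It stood at 202, 205 and 221 CPM in IRF4-deficient and at 153, 149 and 143 CPM in WT libraries. The gap between the groups was wider than the spread within either, and the rise was 1.41-fold (log2 fold change 0.50, SE 0.09, edgeR adjusted p = 0.000434). Of 5 listed genes that make or break down its oxysterol ligand, 2 had no row in the table. Of the 3 tested, 1 was higher and 1 lower. Cyp7b1, which makes the ligand from hydroxylated cholesterol, was near the limit of detection in WT at 0.277, 0.545 and 1.78 CPM and stood at 6.35, 3.71 and 7.79 CPM in IRF4-deficient libraries (log2 fold change 2.80, SE 0.57, edgeR adjusted p = 0.00127, and 3.75 without WT replicate 3). Cyp27a1, a sterol hydroxylase, fell from 192, 212 and 195 CPM to 92.4, 109 and 121 CPM (log2 fold change -0.89, SE 0.11). Hsd3b7, which degrades the ligand, was at 18.3 and 15.3 CPM on average and was not called.

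Of the 5 sphingosine-1-phosphate (S1P) receptor genes 0 were called by edgeR, DESeq2 or limma-voom, 1 had an unadjusted edgeR p under 0.05, and all were below 10 CPM on average. The groups did not overlap in 3 of the 5, which were S1pr1 and S1pr3 with IRF4-deficient values below WT and S1pr4 with values above. S1pr1, the receptor that lets lymphocytes leave lymphoid organs, had means of 5.10 and 8.10 CPM (log2 fold change -0.67, SE 0.33, edgeR adjusted p = 0.173). S1pr4, found mainly in blood cells, was at 4.60, 3.34 and 7.13 CPM against 1.94, 2.45 and 2.60 CPM. Its groups did not overlap, but the adjusted p was 0.0813, and 0.0487 without IRF4-deficient replicate 2 (range 0.0487 to 0.289). S1pr3 (log2 fold change -1.09), S1pr5 (0.62) and S1pr2 (0.08) had edgeR adjusted p of 0.199, 0.537 and 0.931. S1pr4 (log2 fold change 1.10) and S1pr3 were thus not called with changes beyond 1 in size. The part of their low counts in this was not tested. Of 7 tested genes of S1P synthesis, breakdown and export 1 was called (14.3%, against 20.4% of all tested genes). This was the S1P lyase gene Sgpl1, called lower (log2 fold change -0.33, edgeR adjusted p = 0.043). That call was lost in 9 alternatives, among them those without IRF4-deficient replicate 2 (adjusted p 0.0706) or 3 (0.131) or WT replicate 2 (0.177) or 3 (0.163).

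Lysophosphatidic acid (LPA) receptor genes fell or were not called. Lpar3 was at 5.06, 7.54 and 9.02 CPM in IRF4-deficient and 22.0, 16.7 and 25.8 CPM in WT libraries. All IRF4-deficient values lay below WT (log2 fold change -1.58, SE 0.25, edgeR adjusted p = 0.000139). Lpar1 was at 5.06, 3.46 and 5.90 CPM against 14.8, 11.8 and 12.7 CPM, again without overlap (log2 fold change -1.44, SE 0.28, edgeR adjusted p = 0.000959). Both belong to the endothelial differentiation gene branch of LPA receptors. Lpar6 and Lpar5, from the other branch, which is related to P2Y receptors, had means of 39.4 and 39.7 CPM and of 21.4 and 19.1 CPM, and neither was called, nor was the low Lpar2. Of the 8 tested genes of lysophospholipid metabolism 1 was higher and 1 lower (25% called, against 20.4% of all tested genes). Ddhd1, a phospholipase that hydrolyses phosphatidic acid, fell from 457, 583 and 522 CPM to 227, 226 and 212 CPM (log2 fold change -1.23, SE 0.09). Plpp3, listed as Ppap2b, whose product dephosphorylates LPA and S1P outside the cell, rose from 5.74 to 15.8 CPM on average (log2 fold change 1.45, SE 0.34).

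Of the 3 lysophospholipid receptor genes with Gpr symbols 0 were called by edgeR, DESeq2 or limma-voom, and 2 (Gpr34 and Gpr55) had an unadjusted edgeR p under 0.05. Gpr34, a lysophosphatidylserine receptor gene, was at 44.5, 33.4 and 51.3 CPM in IRF4-deficient and 57.7, 56.4 and 54.8 CPM in WT libraries. The groups did not overlap, with an edgeR adjusted p of 0.0786 (log2 fold change -0.38) and of 0.0157 without IRF4-deficient replicate 3 (range 0.0157 to 0.319). Gpr55 and Gpr174 were at 1.32 and 3.53 CPM and at 2.39 and 1.25 CPM on average, with log2 fold changes of -1.44 and 0.97.

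The prostaglandin E2 receptor genes behaved unlike each other. Ptger2, the Gs-coupled EP2 receptor, was near the limit of detection in WT at 1.38, 0.818 and 0.410 CPM, and stood at 6.35, 4.20 and 10.1 CPM in IRF4-deficient libraries. All IRF4-deficient values were above WT (log2 fold change 2.98, SE 0.51, edgeR adjusted p = 0.00028). Ptger4, the Gs-coupled EP4 receptor, which supports the migration of maturing dendritic cells, was at 24.9, 26.8 and 35.7 CPM against 40.8, 41.3 and 44.9 CPM. Its groups did not overlap (log2 fold change -0.54, SE 0.16, edgeR adjusted p = 0.021), but the call was lost without IRF4-deficient replicate 1 (0.0967) or 2 (0.0825) or WT replicate 2 (0.0546) or 3 (0.0824), within a range of 0.00252 to 0.0967. Ptger3, the Gi-coupled EP3 receptor, had 16.0 and 22.3 CPM on average and did not pass (edgeR adjusted p = 0.0925). Ptger1 was not called, and its reads cannot be placed with certainty.

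Eicosanoid synthesis and inactivation genes from the same pathway included 4 called higher and 1 lower of 15 tested. Alox5, which makes leukotrienes, rose from 3.18, 1.91 and 2.60 CPM to 15.1, 18.4 and 15.9 CPM (log2 fold change 2.70, SE 0.29, edgeR adjusted p = 1.26e-06). Hpgd, which inactivates prostaglandin E2, rose from 69.7, 58.6 and 47.7 CPM to 107, 144 and 147 CPM (log2 fold change 1.18, SE 0.15), and Ptgs1, the constitutive cyclooxygenase, from 28.7 to 53.9 CPM on average (0.91, SE 0.19). Hpgds, a synthase of prostaglandin D2, fell from 69.7, 70.3 and 63.1 CPM to 17.7, 24.8 and 36.3 CPM (log2 fold change -1.37, SE 0.20). The groups of Ptgs2, the inducible cyclooxygenase, overlapped and it was not called, with WT replicate 3 at 6.69 CPM beside 65.6 and 63.2 CPM in the other WT libraries.

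Cysltr2, a receptor for cysteinyl leukotrienes, was called lower from 4.15, 5.27 and 5.60 CPM to 2.67, 1.48 and 2.0 CPM (log2 fold change -1.27, SE 0.43, edgeR adjusted p = 0.041). The groups did not overlap. The call rests on few counts and was lost without IRF4-deficient replicates 2 (0.114) or 3 (0.0691) or WT replicates 1 (0.0588), 2 (0.139) or 3 (0.135), and with the replicate number as a block (0.0581), within a range of 0.0392 to 0.139. Cysltr1 had 11.1 and 12.8 CPM on average and was not called.

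Of the 3 tested receptor genes for other lipids and metabolites 1 was lower. Gpr35, whose proposed ligands include kynurenic acid, stood at 449, 431 and 487 CPM in IRF4-deficient and 392, 422 and 444 CPM in WT libraries. The groups overlapped and it was not called (log2 fold change 0.12, edgeR adjusted p = 0.358). Gpr18, for which lipid mediators have been proposed as ligands, was at 81.4, 80.0 and 84.0 CPM against 104, 113 and 98.1 CPM. All IRF4-deficient values were below WT (log2 fold change -0.36, SE 0.11, edgeR adjusted p = 0.0211). It was not called without IRF4-deficient replicate 1 (0.0564) or 2 (0.0666) or WT replicate 2 (0.134), within a range of 0.0156 to 0.134. Gpr44, the prostaglandin D2 receptor gene now named Ptgdr2, was at 3.06 and 2.47 CPM on average and not called.

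Receptor genes of this kind with other symbols numbered 11 tested, of which 2 were called higher and 1 lower. The called share was 27.3%, against 20.4% of all tested genes. Ptafr, the receptor for platelet-activating factor, fell from 41.2, 47.4 and 47.7 CPM to 21.6, 30.0 and 13.7 CPM (log2 fold change -1.06, SE 0.21, edgeR adjusted p = 0.00179). The higher ones, Ltb4r1 and Fpr2, had IRF4-deficient means of 4.29 and 6.90 CPM. Ltb4r1 lost its call without IRF4-deficient replicate 1 (edgeR adjusted p 0.085) or 2 (0.0503) or WT replicate 2 (0.0724) or 3 (0.0867), and Fpr2 without IRF4-deficient replicate 3 or WT replicates 2 or 3 (0.157, 0.101 and 0.099) and with the replicate block (0.0517). The short-chain fatty acid receptor gene Ffar2 was abundant in every library (383, 348 and 372 CPM against 320.0, 323 and 342 CPM) and was not called.

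Of the proton-sensing family 2 of 4 genes were lower. Gpr132, known to be activated by oxidised fatty acids, fell from 280.2, 316 and 333 CPM to 158, 159 and 167 CPM. The 3 IRF4-deficient libraries lay close together and far below WT, a 1.92-fold decrease (log2 fold change -0.94, SE 0.09, edgeR adjusted p = 3.26e-07). Gpr4, known mainly from endothelium, fell from 54.6, 42.5 and 64.6 CPM to 14.4, 12.4 and 22.4 CPM, 3.28-fold and with no overlap (log2 fold change -1.71, SE 0.21, edgeR adjusted p = 1.77e-05). Gpr65, a Gs-coupled acid sensor of leukocytes, was at 94.1, 94.4 and 122 CPM against 104, 105 and 117 CPM. The groups overlapped and it was not called (edgeR adjusted p = 0.735).

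Adhesion receptors carry long extracellular domains, often cut from the helical part by self-proteolysis, and 11 of these receptors appear in the table under Gpr symbols. Only 4 of these had enough counts, of which 2 were lower. Gpr124 (now Adgra2), a Wnt co-receptor known from brain vessels, fell from 106, 101 and 110.5 CPM to 28.0, 24.3 and 25.4 CPM. Replicates were tight and the decrease was 4.07-fold (log2 fold change -2.03, SE 0.12, edgeR adjusted p = 8.37e-10), the smallest adjusted p of the 62 genes. Gpr126 (now Adgrg6), best known from Schwann cells, was at 73.3, 64.5 and 67.7 CPM against 53.5, 65.1 and 70.6 CPM and was not called. Brf2, on the other strand at the Gpr124 locus with 73 shared exon bases, was also lower (log2 fold change -1.76), at 2.06 and 7.08 CPM on average.

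The orphan and other Gpr genes held the steepest change in each direction. Gpr25, an orphan receptor gene with 1 exon, rose from 5.81, 6.27 and 2.87 CPM to 56.4, 26.6 and 56.7 CPM. IRF4-deficient replicate 2 was lower than replicates 1 and 3 but still above all WT libraries, and the rise was 9.18-fold (log2 fold change 3.20, SE 0.34, edgeR adjusted p = 5.38e-05). Leaving out any library kept the log2 fold change between 2.94 and 3.48. Of its exon, 41.6% lies opposite the antisense gene Gm26781, so part of these reads may be of that gene. T cell markers (6 of 7 found in the table) summed to 14.5, 13.4 and 24.6 CPM against 14.7, 8.91 and 9.02 CPM. Of the 3 that were tested, 1 was called higher and 0 lower. This was Lat, at 2.58, 1.36 and 8.57 CPM against 1.24, 0.636 and 0.683 CPM (log2 fold change 2.30, SE 0.66, edgeR adjusted p = 0.0188). The part of T cell transcripts in the Gpr25 result was not tested.

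Gpr82, an X-linked orphan, fell from 50.9, 60.5 and 62.3 CPM to 8.37, 9.89 and 11.2 CPM. This 5.90-fold decrease was the steepest among the 62 genes (log2 fold change -2.56, SE 0.17, edgeR adjusted p = 2.62e-09), and the groups were far apart. Gpr171 rose from 9.82, 2.45 and 5.87 CPM to 14.4, 18.5 and 15.7 CPM without overlap (log2 fold change 1.46, SE 0.36, edgeR adjusted p = 0.0087). Gpr146, which has been linked to cholesterol metabolism in the liver, rose from 55.0, 61.5 and 64.3 CPM to 81.2, 74.6 and 85.2 CPM (log2 fold change 0.41, SE 0.12, edgeR adjusted p = 0.0171). All its IRF4-deficient values were above WT, but without WT replicate 1 or 2 the adjusted p was 0.0829 or 0.0557 (range 0.00909 to 0.0829). Gpr141, another orphan, was at 150.1, 155 and 154 CPM against 174, 162 and 162 CPM, separated but not called (log2 fold change -0.12, edgeR adjusted p = 0.398).

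Weaker calls among the orphans were those of Gpr157 and Gpr152. Gpr157 was at 54.5, 47.1 and 37.2 CPM in IRF4-deficient and 48.1, 78.6 and 77.4 CPM in WT libraries, the only call with overlapping groups (log2 fold change -0.56, SE 0.18, edgeR adjusted p = 0.0438). It was lost without IRF4-deficient replicates 2 (0.115) or 3 (0.127) or WT replicates 2 (0.181) or 3 (0.150), and with the replicate number as a block (0.0836), within a range of 0.00258 to 0.181. Gpr152, at 0.460, 1.48 and 0.891 CPM against 5.39, 2.09 and 3.96 CPM, was called lower (log2 fold change -2.02, SE 0.58, edgeR adjusted p = 0.0172). The call was lost without IRF4-deficient replicate 1 (0.0733) or WT replicate 1 (0.116) or 3 (0.0608), within a range of 0.0123 to 0.116. The overlapping Cabp4 was lower as well. Gpr162, at 4.30 and 8.49 CPM on average, was not called (0.0917), but was without IRF4-deficient replicate 3 (0.0232) and with the replicate block (0.0384, range 0.0232 to 0.390). The other 6 tested orphan or other Gpr genes were not called, with log2 fold changes from -1.09 to 0.04. They are Gpr19, Gpr21, Gpr22, Gpr77 (now C5ar2), Gpr160 and Gpr161.

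Some genes with Gpr symbols encode membrane proteins of the Golgi or lysosome rather than ligand receptors at the surface. Of 8 tested, 2 were lower (25%, against 20.4% of all tested genes called in either direction). Gpr155, which senses cholesterol at the lysosome, fell from 68.0, 54.3 and 82.4 CPM to 28.3, 25.8 and 17.6 CPM, without overlap (log2 fold change -1.50, SE 0.18, edgeR adjusted p = 1.31e-05). Gpr137b-ps, annotated as a pseudogene copy of the lysosomal Gpr137b, fell from 19.9, 24.0 and 28.5 CPM to 8.93, 8.77 and 7.57 CPM (log2 fold change -1.52, SE 0.21, edgeR adjusted p = 3.60e-05). Gpr137b itself was at 33.8, 35.3 and 45.2 CPM against 46.1, 52.0 and 54.2 CPM, with an adjusted p of 0.0511 and of 0.00868 without IRF4-deficient replicate 3 (range 0.00868 to 0.184). These copies share 29.5% and 28.6% of their 50-base exon words, so the split of reads between them is uncertain. Gpr107 and Gpr108, which act in trafficking at the Golgi, were at 56.0 and 62.6 CPM and at 85.4 and 75.0 CPM on average. In Gpr108 all IRF4-deficient values (81.2, 82.2 and 92.9 CPM) were above WT (75.2, 76.5 and 73.2 CPM), and in Gpr107 (55.2, 56.9 and 55.8 CPM against 63.3, 68.2 and 56.3 CPM) the groups overlapped. Neither was called, nor were Gpr89 (log2 fold change 0.19), Gpr137 (-0.03) and Gpr180 (-0.14).

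**Figure D3:**
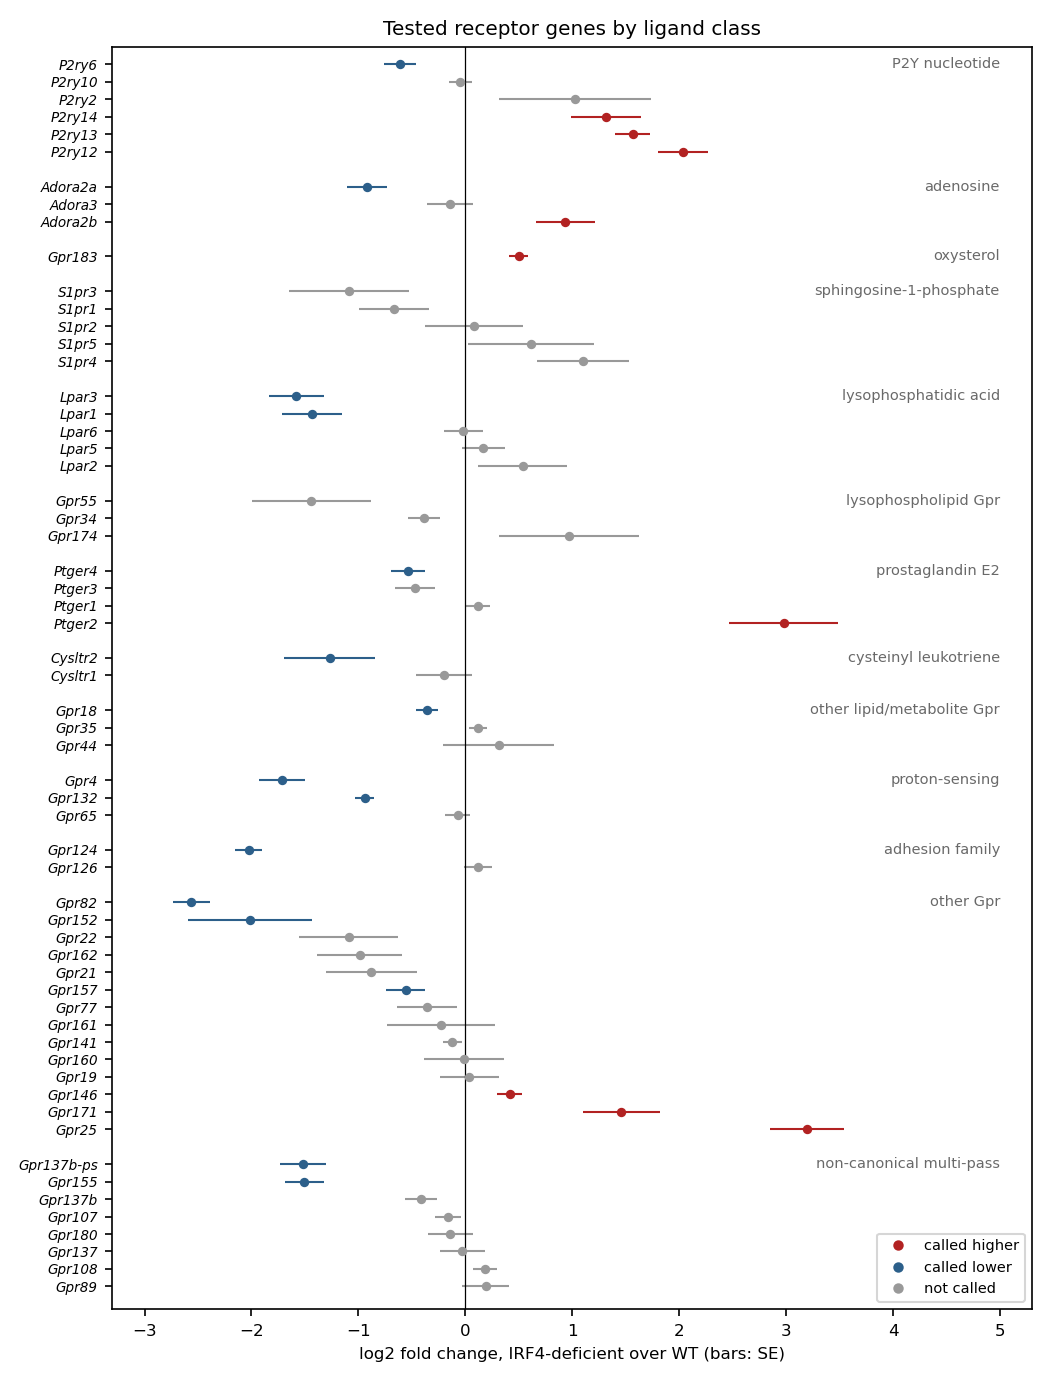
Log2 fold change (IRF4-deficient over WT, bars SE) of 59 of the 62 tested receptor genes by ligand class; red is called higher, blue called lower and grey not called, with edgeR's adjusted p and a threshold of 0.05. The S1P receptor genes are all grey, 3 of 6 P2Y genes are red, and the LPA, proton-sensing and adhesion classes hold blue and grey points only.

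Levels of different receptors were compared per kilobase of annotated exon, which sets genes of unequal length on one scale. High levels in WT included Gpr132 at rank 1 (114 CPM per kb), Gpr35 at rank 2 (86.6), Gpr18 at rank 4 (70.0), Gpr65 at rank 5 (52.6) and Gpr183 at rank 6 (51.3). In IRF4-deficient cells the first 5 were Gpr35 (94.1 CPM per kb), Gpr183 (72.5), Gpr132 (59.4), Gpr18 (54.6) and Gpr65 (50.1). Neighbours in these orders often lie within their spread: in WT Gpr65 and Gpr183 had SDs of 3.59 and 1.66 CPM per kb (n = 3). Gpr132 went from rank 1 to 3, and Gpr183 from rank 6 to 2. Among other genes that changed rank, Gpr25 went from 33 to 7, P2ry12 from 37 to 17, P2ry13 from 19 to 8, Gpr124 from 14 to 29 and Gpr82 from 11 to 33.

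**Figure D4:**
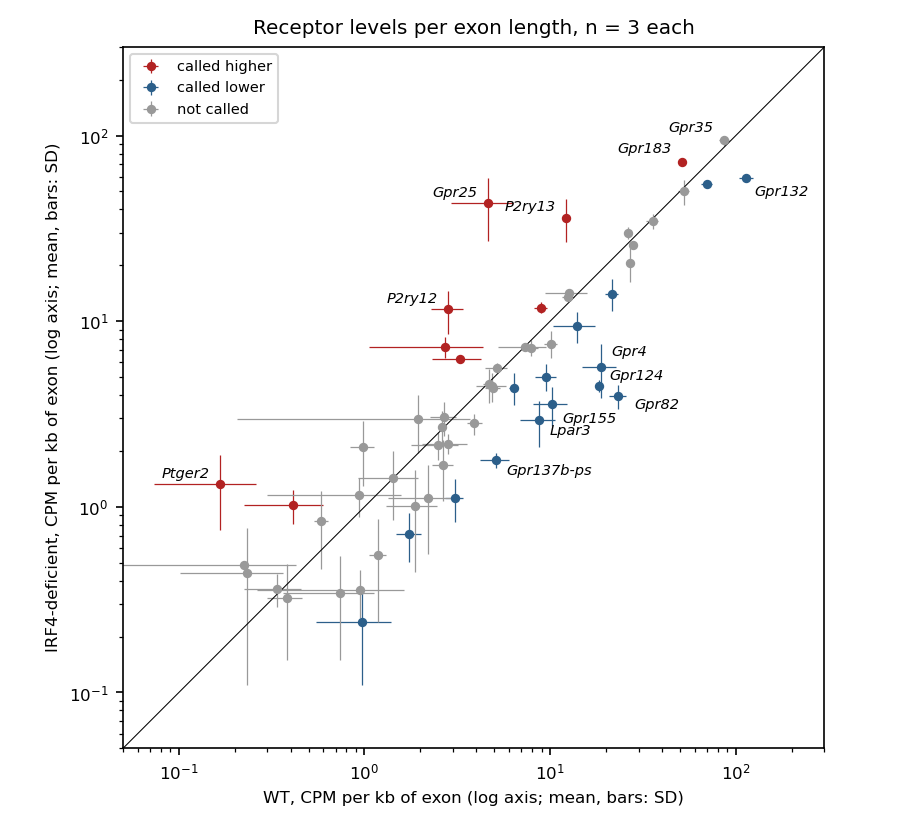
Mean level per kilobase of exon of receptor genes in WT (x) and IRF4-deficient libraries (y), both in CPM per kb on log axes, with SD bars (n = 3 each) and the line of equality; red is called higher, blue called lower and grey not called. Gpr35 lies near the line, Gpr132 and Gpr82 below it, and Gpr25 and P2ry13 far above it.

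Several of these genes are neighbours on the chromosome, many inside introns of a larger gene on the other strand. Positions are those of GENCODE M21 (GRCm38, which mm10 names as well), where 83 of the 84 genes were found, 14 of them by a newer symbol. On chromosome 3, Gpr171 (59096448 to 59101821), P2ry14 (59113855 to 59153618), P2ry13 (59207892 to 59210882) and P2ry12 (59216272 to 59262871) lie on the minus strand, with gaps of 12, 54.3 and 5.4 kb. All 4 were called higher. They sit inside Med12l (59005825 to 59318682, plus strand), a Mediator subunit gene, which rose as well, from 2.77, 3.09 and 3.14 CPM to 22.1, 10.3 and 15.3 CPM (log2 fold change 2.40, SE 0.31, edgeR adjusted p = 1.47e-05). Exons of Med12l and P2ry12 share 9 bases, and the other 3 share none with it. In IRF4-deficient libraries Med12l was highest in replicate 1, where all 4 receptor genes were lowest. Whether the rises of Med12l and of these receptor genes are linked was not tested.

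Other neighbours did not move together. On chromosome 14, Gpr18 (121911253 to 121915781, minus strand) and Gpr183 (121952551 to 121965195, minus strand) are 36.8 kb apart inside Ubac2, and Gpr18 was lower and Gpr183 higher. Ubac2 itself was lower (log2 fold change -0.51, SE 0.12). On the X chromosome, Gpr34 (13632089 to 13640858) and Gpr82 (13661363 to 13667433), both on the plus strand inside Cask, are 20.5 kb apart. Gpr82 fell 5.90-fold, Gpr34 had a log2 fold change of -0.38 and was not called, and Cask was not called (-0.04, SE 0.13). P2ry6 and P2ry2 are 21.9 kb apart on chromosome 7, where P2ry6 was lower and P2ry2 was not called. Of the uncalled genes, Gpr44 shares 39.0% of its exon length with Ccdc86 and Adora3 20.9% with Tmigd3, so their counts are uncertain too.

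**Figure D5:**
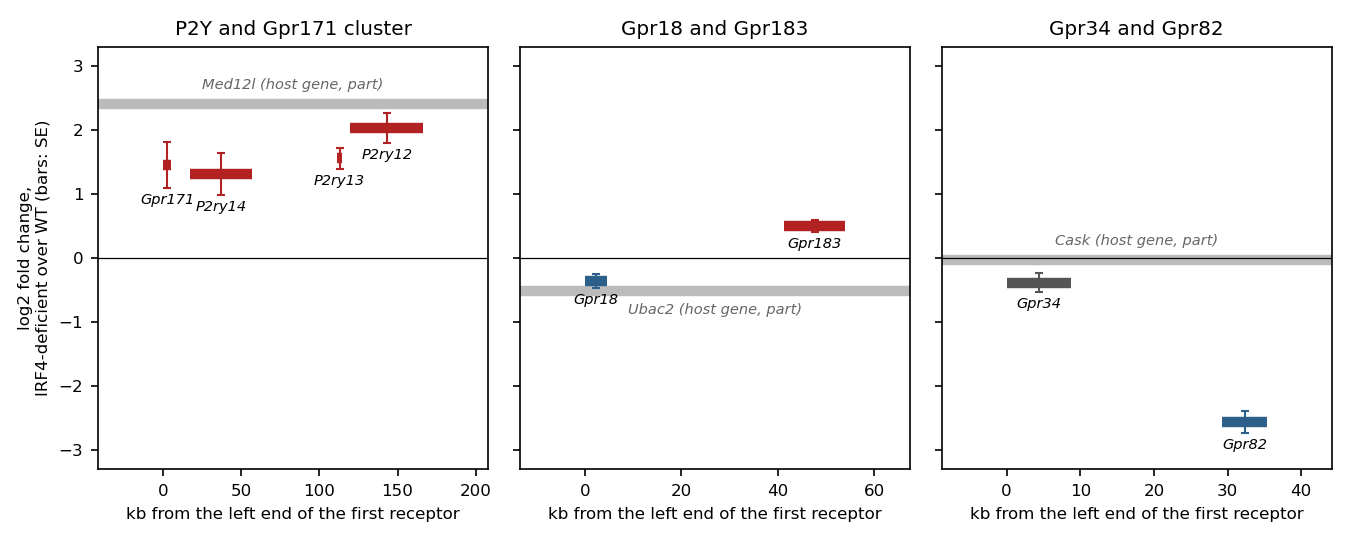
Log2 fold change (y, error bars SE) of receptor genes that lie side by side inside a host gene, drawn as bars over the span of each gene in kb (x), with the host genes Med12l, Ubac2 and Cask in light grey; red is called higher, blue called lower and dark grey not called. The receptor genes in Med12l are all above 0, Gpr18 and Gpr183 lie on opposite sides of 0, and Gpr82 lies far below Gpr34.

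The promoters of neighbours that moved together and of neighbours that moved apart are shown as RefSeq gives them on GRCm38.p6, from 250 bases before to 50 bases after the annotated start, 5′ to 3′ on the strand of the gene. IRF4 is known to bind interferon response elements, here searched as GAAA, any 2 bases and GAAA, and, together with PU.1, composite elements, here searched as GGAA, any 2 bases and GAAA. Both strands were searched and a match is in capitals. P2ry12 and P2ry13, neighbours on chromosome 3 that both rose, are the windows chr3:59262936-59263235 and chr3:59210833-59211132 on the minus strand.
P2ry12: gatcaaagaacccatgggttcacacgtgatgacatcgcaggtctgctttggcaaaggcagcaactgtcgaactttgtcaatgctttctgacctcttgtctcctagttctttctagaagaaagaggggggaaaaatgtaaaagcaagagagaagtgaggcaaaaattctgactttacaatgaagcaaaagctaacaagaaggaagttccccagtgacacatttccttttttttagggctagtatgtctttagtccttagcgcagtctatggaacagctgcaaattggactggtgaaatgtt
P2ry13: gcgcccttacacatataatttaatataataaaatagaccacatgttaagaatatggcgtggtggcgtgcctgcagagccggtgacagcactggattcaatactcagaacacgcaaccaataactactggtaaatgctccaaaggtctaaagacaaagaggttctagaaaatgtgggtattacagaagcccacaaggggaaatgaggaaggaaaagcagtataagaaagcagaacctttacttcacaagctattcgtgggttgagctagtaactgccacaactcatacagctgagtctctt
Gpr183, which rose, and Gpr18, which was called lower, are the windows chr14:121965144-121965443 and chr14:121915839-121916138 on the minus strand.
Gpr183: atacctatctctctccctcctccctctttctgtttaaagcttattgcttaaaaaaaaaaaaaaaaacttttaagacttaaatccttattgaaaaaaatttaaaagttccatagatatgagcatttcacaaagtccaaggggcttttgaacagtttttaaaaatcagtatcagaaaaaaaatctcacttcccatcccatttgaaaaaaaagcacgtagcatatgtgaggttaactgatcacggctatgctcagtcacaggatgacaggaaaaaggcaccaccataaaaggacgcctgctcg
Gpr18: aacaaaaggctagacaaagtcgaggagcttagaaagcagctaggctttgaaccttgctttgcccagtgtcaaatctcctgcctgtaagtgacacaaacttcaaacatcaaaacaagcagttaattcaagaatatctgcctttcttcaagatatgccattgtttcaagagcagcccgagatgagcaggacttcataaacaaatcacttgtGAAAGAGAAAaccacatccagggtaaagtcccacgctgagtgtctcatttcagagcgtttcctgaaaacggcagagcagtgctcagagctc

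Of these 4 windows only that of Gpr18 holds a match, GAAAGAGAAA, which starts at position -41 from the annotated start. Windows were found for 61 of the 84 genes. Either motif was in 3 of them (4.92%): Gpr18, the uncalled Gpr19 and the untested Gpr33. Of all 27025 genes with such a window 6.82% hold a match, and of the tested genes 6.64%. A match was found in 0 of 8 higher and 1 of 11 lower genes with a window. These counts describe letters within 300 bases and say nothing about binding elsewhere.

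Genes that carry the signal onward or shut the receptors off also differed. Of 7 tested genes of receptor desensitisation 3 were higher and 2 lower (71.4% called, against 20.4% of all tested genes). Arrb1, the gene of beta-arrestin 1, which uncouples active receptors, rose from 54.9, 51.7 and 51.2 CPM to 116, 138 and 135 CPM (log2 fold change 1.30, SE 0.11, edgeR adjusted p = 8.96e-08). Arrb2 rose from 121, 140.1 and 107 CPM to 156, 153 and 182 CPM (0.41, SE 0.11), but was not called without WT replicate 3 (0.0831, range 0.00669 to 0.0831). Grk6 was higher (0.82, SE 0.18), and Grk3 (listed as Adrbk2) fell from 762, 959 and 903 CPM to 564, 671 and 543 CPM (-0.56, SE 0.10). Grk4, at 2.27 and 5.38 CPM on average, was the other lower gene and lost its call without IRF4-deficient replicates 1 or 3 or WT replicates 2 or 3 (0.114, 0.0797, 0.250 and 0.102) and with the replicate block (0.0537).

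In the cyclic AMP pathway, which Gs- and Gi-coupled receptors act on, 6 of 20 tested genes were lower and 1 higher. Adcy6, an adenylyl cyclase gene, fell from 57.3, 85.9 and 92.2 CPM to 19.1, 14.3 and 16.4 CPM (log2 fold change -2.24, SE 0.18, edgeR adjusted p = 6.65e-08). Adcy7, another cyclase gene, was at 293, 306 and 318 CPM against 336, 354 and 363 CPM, separated but not called. The phosphodiesterase genes Pde7a and Pde4a fell from 90.3 to 49.1 and from 55.8 to 29.7 CPM on average, and Prkar2b, a regulatory subunit of protein kinase A, from 40.01 to 22.6 CPM. Rapgef4 and Prkar2a were the other lower genes, of which Prkar2a lost its call without WT replicate 1 (0.0699). Prkar1b, the gene called higher, went from a log2 fold change of 1.84 to 0.89 without IRF4-deficient replicate 3 and was then not called (0.374). It also lost its call with limma-voom (0.116) and without WT replicate 1 (0.0959), 2 (0.174) or 3 (0.0536).

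Genes of extracellular nucleotide and adenosine metabolism, which set the supply of P2Y and adenosine ligands, included 1 higher and 1 lower of 10 tested. The called share, 20%, was near that of all tested genes. Enpp1, an ectonucleotidase gene, rose from 7.61, 3.82 and 6.69 CPM to 19.2, 14.3 and 17.1 CPM (log2 fold change 1.51, SE 0.27, edgeR adjusted p = 0.000472). Dpp4, a surface peptidase known in humans to bind adenosine deaminase, fell from 641, 711 and 772 CPM to 481, 479 and 518 CPM (log2 fold change -0.52, SE 0.08). Entpd1, the CD39 gene, was at 149, 162 and 255 CPM against 158, 161 and 142 CPM, high only in IRF4-deficient replicate 3, and was not called. Over the 8 lists of ligand, enzyme and signalling genes 27 of 81 tested genes were called (33.3%), 13 higher and 14 lower, against 20.4% of all tested genes.

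The 22 genes with too few counts for the test had at most 2.18 CPM on average and at most 39 counts in any library. They are 7 adhesion receptor genes, 11 other Gpr genes, the lipid and metabolite receptor genes Gpr3, Gpr81 and Gpr84, and Gpr137c. In 6 of them the highest count was in IRF4-deficient replicate 3. Gpr81, the lactate receptor gene now named Hcar1, had 38 counts there and 0 in each of the other 5 libraries. Gpr83 had 9, 11 and 39 counts in IRF4-deficient and 1, 6 and 1 in WT libraries, and Gpr137c 2, 3 and 28 against 4, 4 and 5. Gpr52 had 1, 0 and 0 counts against 8, 8 and 5. With no filter on low counts edgeR called Gpr83 higher (adjusted p = 0.0284) and Gpr52 lower (0.0443), as did DESeq2 (0.0217 and 0.0487).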

How the data were processed

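Libraries were made from total RNA with Illumina protocols, as the labels state. The deposited values are raw counts, 1 row per gene symbol and 1 column for each of the 6 libraries, not normalized, with 7421605 to 11459920 counts per column. STAR, HTSeq, DESeq2 and the build mm10 are named in the submitters' processing notes. For tool versions, annotation and strand setting nothing is given in the sources used here, so reads of overlapping or antisense genes cannot be told apart. WT columns were matched to titles through the labels' source names. Those names hold sample numbers that run separately for each genotype, so an effect of that order cannot be told apart from genotype.

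The genes, ligand classes, lists, tests and the rule for named genes were chosen with earlier results of these data known. Genes were filtered with filterByExpr, scaled by TMM and fitted over the whole table with edgeR 4.0.16 (glmQLFit, robust, glmQLFTest) in R 4.3.3. A gene was called at an adjusted p under 0.05. Fold changes carry a prior count of 0.125, and SEs come from the quasi-likelihood F statistic. Values in every library are given for called genes, for uncalled ones with a mean of at least 50 CPM in a group, and for some others. From each other list up to 4 genes with the smallest p and those of at least 50 CPM could be named. Cysltr2, Gpr152, S1pr4, Grk4, Gpr81, Gpr83, Gpr137c, Gpr52 and Med12l fall outside that rule or below its minimum and were named after their values were seen, as were host and overlapping genes. Some genes that are part of the counts are not reported here by name.

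On simulated data with these libraries' means and sizes, 20.9%, 79.1% and 98.5% of genes changed 1.5-fold, 2-fold and 4-fold were recovered (67, 67 and 66 genes among 11965 tested, 6 false calls among 138). Within each group the libraries differed by more than counting noise, which cannot show whether they came from separate mice. Each library was counted as 1 replicate. Replicate numbers are those of the titles, while the deposited WT columns are named WT_2, WT_3 and WT_4. Libraries with the same title number did not deviate together (correlations -0.005, 0.051 and -0.011 over 11934 genes). Replicate numbers were therefore not taken as pairs, and pairs by column number were not examined. Alternatives were DESeq2 1.42.0, edgeR with DESeq2's size factors or with upper-quartile factors, no filter, at least 5 CPM in 3 libraries, limma-voom (limma 3.58.1), no robust shrinkage, the replicate block, removal of Rn45s and Malat1, and leaving out each library. For the ligand, enzyme and signalling lists these were added after seeing the data.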

Additional observations from a re-analysis of the deposited data

How the results depend on the processing

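The number of receptor genes called higher was 9 and ranged from 8 to 10 under the alternatives that kept all libraries. The number called lower was 16 and ranged from 15 to 17 there. Leaving out each library gave 7 to 10 higher and 12 to 17 lower, with the fewest of 7 without WT replicate 1, and 12 lower without IRF4-deficient replicate 2, WT replicate 2 or WT replicate 3. No called receptor gene changed direction under any of the 15 alternatives, and none moved by over 1.5 times. The median log2 fold change of all tested genes moved by at most 0.016 from 0 under any scaling. Of the 37 uncalled genes 33 stayed uncalled in all alternatives that tested them, and Gpr137b, which did not, was also called with upper-quartile factors (0.0486), limma-voom (0.0459) and the stricter filter (0.047). The cause was not tested. Of the list genes 27 were called, and 20 to 27 under the alternatives.

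With the replicate number as a block, 9 genes were higher and 16 lower, as without it, and 14 of the 16 were shared. Cysltr2 and Gpr157 lost their call and Gpr137b and Gpr162 gained one. Same-numbered libraries share only the number in their titles. Of the tested genes 21 were under 10 CPM in both groups. On simulated data, over genes of all levels and with the same variation for each, most changes of 1.5-fold were missed.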
